A study of Mus musculus with 22 samples.

Results

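The 9 genes described here encode the mouse Fc gamma receptors Fcgr1, Fcgr2b, Fcgr3 and Fcgr4, their shared signalling subunit Fcer1g, the phagocytic receptor kinases Mertk and Axl, and the TAM ligands Gas6 and Pros1. They were taken by symbol from the 23953 genes of the expression table, 1 transcript per gene (the one with the highest mean), and followed in all 10 RNA-seq libraries and in the peaks of 12 ChIP-seq libraries that lay within 20 kb of each start site.

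Fc gamma receptors bind the constant part of IgG and let macrophages and microglia take up antibody-coated particles. Fcgr1 (CD64), Fcgr3 (CD16) and Fcgr4 are activating receptors that pair with the ITAM-bearing Fcer1g chain, whereas Fcgr2b (CD32) carries its own inhibitory ITIM and opposes them. The TAM receptors Tyro3, Axl and Mertk recognise phosphatidylserine on dying cells through the vitamin K-dependent bridging proteins Gas6 and Pros1 (protein S), with Pros1 acting on Tyro3 and Mertk. PU.1 and C/EBP factors are lineage regulators of myeloid cells, and H3K4me2 marks promoters and enhancers.

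The cells carried mutant or normal huntingtin, the protein altered in Huntington's disease. BV2, an immortalised mouse microglial line, had been transduced with lentivirus carrying a CMV-driven N-terminal human huntingtin fragment with 128 glutamines (the 128Q line), the same fragment with 15 glutamines (the 15Q line) or the empty pCDH vector, so that all 3 lines carried viral vector. The labels do not say how many transductions or clones stand behind a line. Each line had 2 untreated RNA libraries, 1 at 24 h and 1 at a second time, and 1 untreated ChIP library at 24 h for each of PU.1, C/EBPβ, C/EBPα and H3K4me2. Primary microglia, sorted from adult mouse brain as CD11b+ CD45low events, and bone marrow-derived macrophages (BMDM), grown with L-cell medium as a source of M-CSF, came from Q175/175 mice (mutant huntingtin) and Q7/7 mice (wild type), with 1 RNA library for each cell type and genotype. The labels used here give no age for the mice and do not say how many mice went into a library. The sort included an antibody against CD16/CD32, the products of Fcgr3 and Fcgr2b, as a step before staining.

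The labels call the second BV2 time 48 h and the column names of the expression table call it 6 h, so no order of the times is assumed. No source says whether libraries came from separate cultures, so every p-value reflects the spread among these libraries alone. Low values came out as whole reads (within 0.1 read) for 99.3% to 100% of the low values of a library, which put the depth at 10.8 to 14.0 M reads in BV2, 28.8 to 34.3 M reads in microglia and 30.2 to 47.8 M reads in BMDM. All 8 listed macrophage markers had reads in every BV2 library, with summed levels of 713 to 1806 RPKM (reads scaled by transcript length and library depth), but the defining microglial genes P2ry12, Cx3cr1, Sall1, Siglech and Gpr34 were at most 0.074 RPKM in any BV2 library. The 10 microglia markers summed to 3675 RPKM in Q175/175 microglia and 4391 RPKM in Q7/7 microglia, and to 62.9 to 97.6 RPKM in BMDM. Neutrophil markers (11 of 12 in the table, S100a8 and S100a9 the most abundant) summed to 577 RPKM in Q175/175 microglia and 1815 RPKM in Q7/7 microglia, to 271 and 468 RPKM in Q175/175 and Q7/7 BMDM, and to at most 6.07 RPKM in BV2. B cell, NK and T cell, and mast cell markers summed to at most 4.83 RPKM in any library.

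Fcgr2b, Fcgr4, Fcgr3 and Fcer1g lie in 1 cluster on mouse chromosome 1 (mm9), with transcripts at chr1:172890689-172906202 on the minus strand, chr1:172949057-172959892 on the plus strand, chr1:172981300-172989534 on the minus strand and chr1:173159703-173164480 on the minus strand. Their start sites stand 42.9 kb (Fcgr4), 83.3 kb (Fcgr3) and 258.3 kb (Fcer1g) from that of Fcgr2b. Fcgr1 lies apart from them at chr3:96086832-96097892 on the minus strand. The TAM genes are scattered, with Mertk at chr2:128524733-128627924 (plus), Axl at chr7:26541519-26573752 (minus), Gas6 at chr8:13465374-13494535 (minus) and Pros1 at chr16:62854160-62929166 (plus). No source states whether counting used strand. The extracellular parts of Fcgr2b and Fcgr3 are near-identical in sequence, so reads from either could be assigned to the other, and the values of both are uncertain to that extent.

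All 5 Fc receptor genes had a PU.1 peak at the start site in each of the 3 BV2 lines. The centres of the merged sites stood at -53 bases for Fcgr1, -32 for Fcgr2b, -13 for Fcgr3, -5 for Fcgr4 and -22 for Fcer1g, where negative is before the start. The promoter sequences of these 5 genes (RefSeq, GRCm38.p6, 250 bases before to 50 after the start, transcribed strand) are shown because the data bear on them. Capitals mark matches to the PU.1 letters GAGGAAG, which read CTTCCTC on the strand shown, and to the C/EBP letters TTGCNNAA, both searched on both strands.

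Fcgr1 (chr3:96293920-96294219, minus strand): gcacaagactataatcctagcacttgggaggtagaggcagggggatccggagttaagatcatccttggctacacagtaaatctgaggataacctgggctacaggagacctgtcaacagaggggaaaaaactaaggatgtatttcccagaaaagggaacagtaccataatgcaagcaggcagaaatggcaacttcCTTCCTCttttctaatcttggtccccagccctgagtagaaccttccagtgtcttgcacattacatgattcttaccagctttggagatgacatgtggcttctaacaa
Fcgr2b (chr1:170976022-170976321, minus strand): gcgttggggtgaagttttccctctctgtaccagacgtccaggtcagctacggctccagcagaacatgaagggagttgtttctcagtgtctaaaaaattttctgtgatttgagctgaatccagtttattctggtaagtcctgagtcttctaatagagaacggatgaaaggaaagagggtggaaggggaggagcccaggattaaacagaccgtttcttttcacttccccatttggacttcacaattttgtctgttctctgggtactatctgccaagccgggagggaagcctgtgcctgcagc
Fcgr3 (chr1:171059354-171059653, minus strand): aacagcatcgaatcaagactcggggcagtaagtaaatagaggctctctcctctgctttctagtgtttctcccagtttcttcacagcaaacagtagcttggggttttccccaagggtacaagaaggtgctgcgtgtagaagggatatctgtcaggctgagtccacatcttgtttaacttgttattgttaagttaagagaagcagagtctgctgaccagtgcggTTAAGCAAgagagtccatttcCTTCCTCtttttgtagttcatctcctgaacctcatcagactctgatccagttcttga
Fcgr4 (chr1:171018676-171018975, plus strand): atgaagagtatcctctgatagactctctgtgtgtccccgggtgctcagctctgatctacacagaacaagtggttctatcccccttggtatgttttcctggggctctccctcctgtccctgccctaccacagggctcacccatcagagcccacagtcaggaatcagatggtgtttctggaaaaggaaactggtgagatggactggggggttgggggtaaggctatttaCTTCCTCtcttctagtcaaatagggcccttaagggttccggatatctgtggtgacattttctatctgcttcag
Fcer1g (chr1:171234300-171234599, minus strand): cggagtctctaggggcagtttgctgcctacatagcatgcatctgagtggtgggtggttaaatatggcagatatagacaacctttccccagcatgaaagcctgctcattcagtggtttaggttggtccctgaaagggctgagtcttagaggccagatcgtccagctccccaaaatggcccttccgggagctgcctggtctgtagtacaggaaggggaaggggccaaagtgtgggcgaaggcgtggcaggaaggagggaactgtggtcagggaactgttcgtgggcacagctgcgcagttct

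The PU.1 letters stood 56 to 50 bases before the start of Fcgr1, 7 to 1 bases before that of Fcgr3 and 23 to 17 bases before that of Fcgr4. In Fcgr1 and Fcgr3 these positions were close to the centre of the PU.1 site, each counted from the start in its own build. Fcgr3 also held the C/EBP letters 28 to 21 bases before its start, and there a C/EBPα site at -7 and a C/EBPβ site at -27 were called in all 3 lines. Neither set of letters was in these windows of Fcgr2b and Fcer1g. Among the TAM genes the PU.1 letters were found only in the Axl promoter (131 to 125 bases before the start), which had no PU.1 peak within 1 kb. Of 32851 mouse promoters of this length, 13.6% held the PU.1 letters and 10.8% the C/EBP letters. The same windows were searched for the interferon-related letters TTCNNNGAA (GAS, in 8.30% of promoters), found as TTCCCAGAA 109 to 101 bases before the start of Fcgr1 and as TTCCAGGAA 92 to 84 bases before that of Pros1. The GAS letters are the same on both strands and overlapped no other match. The interferon-stimulated response element ISRE, in 3.44% of promoters, was found as GAAAAGGAAA 73 to 64 bases before the start of Fcgr4.

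**Figure D1:**
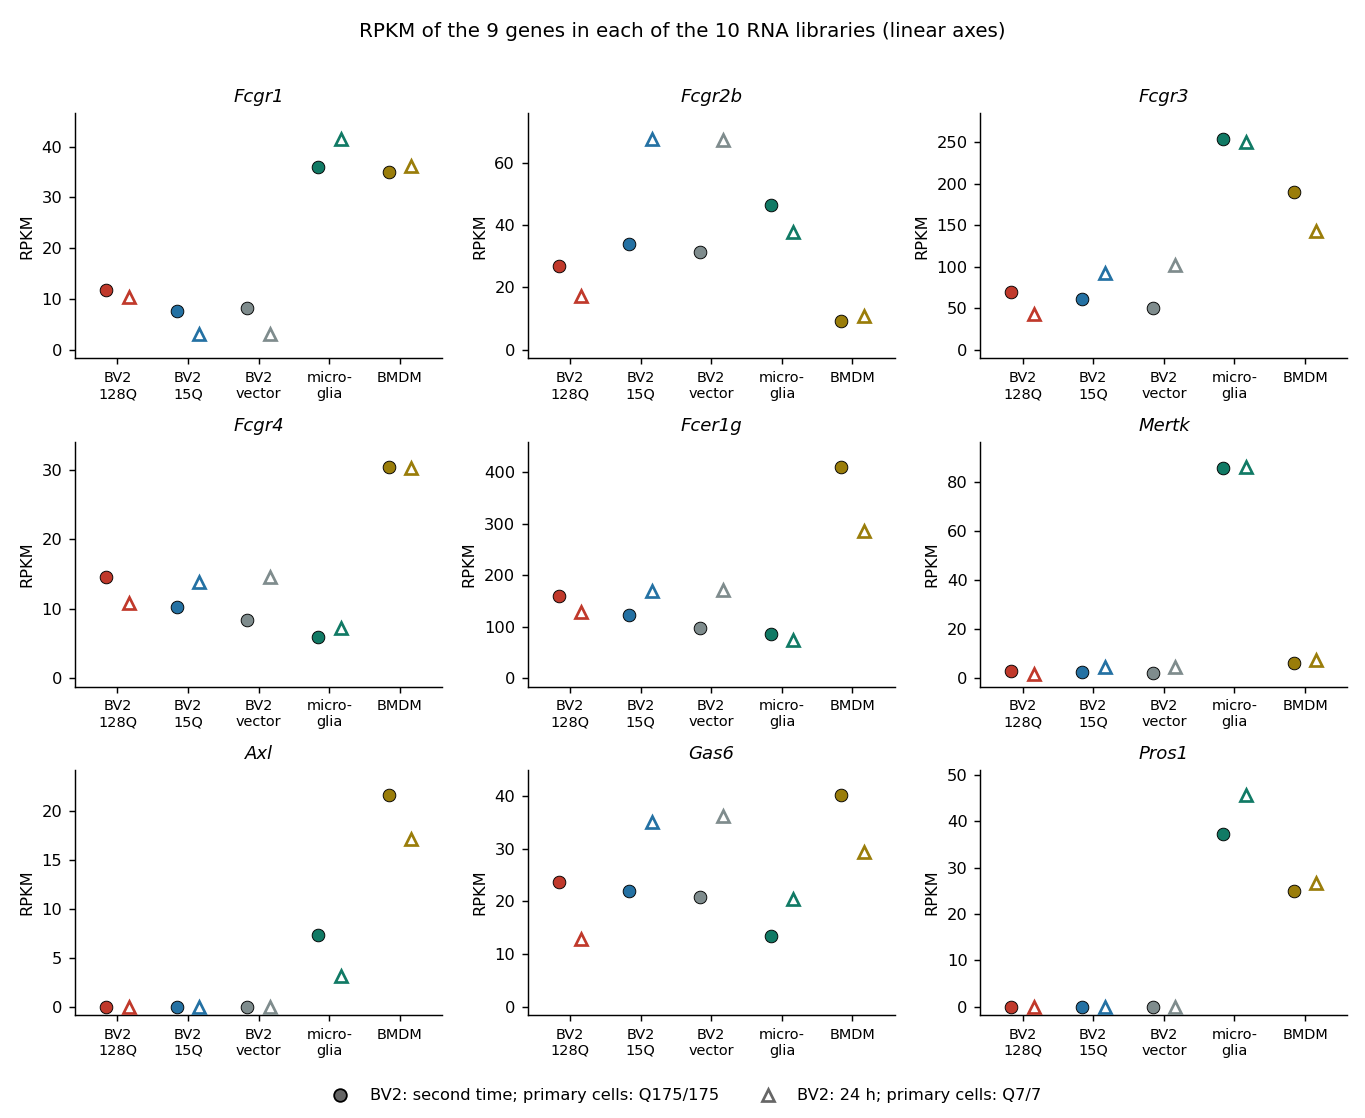
RPKM of each gene (y axis, linear) in the 10 RNA libraries, by BV2 line and primary cell type (x axis). Filled circles are the second time (BV2) or Q175/175 (primary cells) and open triangles are 24 h or Q7/7, 1 library each, with no error bars. Axl and Pros1 are at 0 in all 6 BV2 libraries, and Mertk is above 85 RPKM in both microglia libraries and at most 7.44 RPKM in every other library.

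The repertoire differed by cell type, as the plot of RPKM by library shows. Fcer1g was the most abundant of the 9 genes in every BV2 and BMDM library, and Fcgr3 in both microglia libraries. In BV2, Fcer1g lay between 97.9 and 170 RPKM and Fcgr3 between 43.2 and 102 RPKM, followed in every library by Fcgr2b, Gas6 and Fcgr4. Mertk was at the low end, with 1.69 to 4.56 RPKM in BV2, which was 82 to 212 reads. Axl and Pros1 were listed at 0 in all 6 BV2 libraries, where 3 reads would be worth 0.0449 to 0.0584 RPKM for Axl and 0.0658 to 0.0857 RPKM for Pros1. Tyro3, the remaining TAM receptor, was listed at 0 in BV2 and BMDM and had 3 reads in Q175/175 microglia and 9 reads in Q7/7 microglia. Mertk was therefore the only TAM receptor with reads in BV2.

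In the 128Q line at 24 h, the inhibitory receptor Fcgr2b, the activating receptor Fcgr3, Mertk and Gas6 were lower than in both control lines, and the high-affinity receptor Fcgr1 was higher. Fcgr1 had 10.3 RPKM in the 128Q line, against 3.15 RPKM in the 15Q line and 3.17 RPKM in the empty-vector line. Fcgr2b had 17.3 RPKM in the 128Q line, against 67.7 RPKM in the 15Q line and 67.3 RPKM in the empty-vector line. Fcgr3 had 43.2 RPKM in the 128Q line, against 92.1 RPKM in the 15Q line and 102 RPKM in the empty-vector line. For each of these 3 genes the 2 control lines lay close together and the 128Q library outside them. Gas6 had 12.8 RPKM in the 128Q line, against 35.0 RPKM in the 15Q line and 36.2 RPKM in the empty-vector line. Mertk had 1.69 RPKM in the 128Q line, against 4.56 RPKM in the 15Q line and 4.38 RPKM in the empty-vector line. The receptor and its ligand were thus both low in the 128Q library at this time. Fcgr4 (10.9 RPKM in the 128Q line, against 13.8 RPKM in the 15Q line and 14.5 RPKM in the empty-vector line) and Fcer1g (128 RPKM in the 128Q line, against 169 RPKM in the 15Q line and 170 RPKM in the empty-vector line) also lay below both controls.

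The 24 h difference was tested with limma on log2(RPKM + 1). The spread was that between the 2 control lines of a time, pooled over both times and moderated by limma over all genes. The lone 128Q library was assumed to share it. The pseudocount of 1 makes a fold change smaller than the ratio of RPKM for low genes. Of the 7 genes tested (Axl and Pros1 did not pass the filter of 1 RPKM in 2 libraries), 5 passed the threshold of 0.05 on the adjusted p (Benjamini-Hochberg over all genes), while 39.6% of the 10350 genes tested did so, 21.1% higher and 18.4% lower. Fcgr2b was lower by a log2 difference of -1.91 ± 0.10 (SE, limma adjusted p = 0.000871) and Gas6 by -1.41 ± 0.10 (limma adjusted p = 0.00147). Fcgr1 was higher by 1.45 ± 0.11 (limma adjusted p = 0.00147). Fcgr3 had a difference of -1.15 ± 0.15 and Mertk of -1.02 ± 0.13, both with limma adjusted p = 0.00521. Fcgr4 (-0.35 ± 0.14) and Fcer1g (-0.40 ± 0.16) missed the threshold, with limma adjusted p of 0.112 and 0.104. Each line had 1 library per time, so a difference between lines and one between single libraries cannot be told apart.

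At the second time 6 of the 7 genes lay above both controls in the 128Q line, though few of them passed the test. The share of all genes that lay above or below both controls was not counted at either time. The differences of Fcgr1, Fcgr2b, Fcgr3, Mertk and Gas6 were smaller in size than at 24 h, and those of Fcgr4 and Fcer1g were larger in size. The sign was opposite to that at 24 h for Fcgr3, Fcgr4, Fcer1g, Mertk and Gas6, and the same for Fcgr1 and Fcgr2b. Fcgr2b had 26.8 RPKM in the 128Q line, against 33.8 RPKM in the 15Q line and 31.5 RPKM in the empty-vector line. Fcgr3 had 69.6 RPKM in the 128Q line, against 60.9 RPKM in the 15Q line and 50.8 RPKM in the empty-vector line. Fcgr1 had 11.7 RPKM in the 128Q line, against 7.55 RPKM in the 15Q line and 8.19 RPKM in the empty-vector line. Fcgr2b was the only one of the 7 genes whose 128Q value lay below both controls at this time. Fcgr4 had 14.6 RPKM in the 128Q line, against 10.2 RPKM in the 15Q line and 8.33 RPKM in the empty-vector line. Fcer1g had 159 RPKM in the 128Q line, against 123 RPKM in the 15Q line and 97.9 RPKM in the empty-vector line. Mertk (2.87 RPKM in the 128Q line, against 2.57 RPKM in the 15Q line and 2.04 RPKM in the empty-vector line) and Gas6 (23.7 RPKM in the 128Q line, against 21.9 RPKM in the 15Q line and 20.8 RPKM in the empty-vector line) lay above both controls without passing. Only Fcgr1 (0.52 ± 0.11, limma adjusted p = 0.0265) and Fcgr4 (0.61 ± 0.14, limma adjusted p = 0.0383) passed, both higher, with 23.5% of all genes called, 8.98% higher and 14.6% lower.

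**Figure D2:**
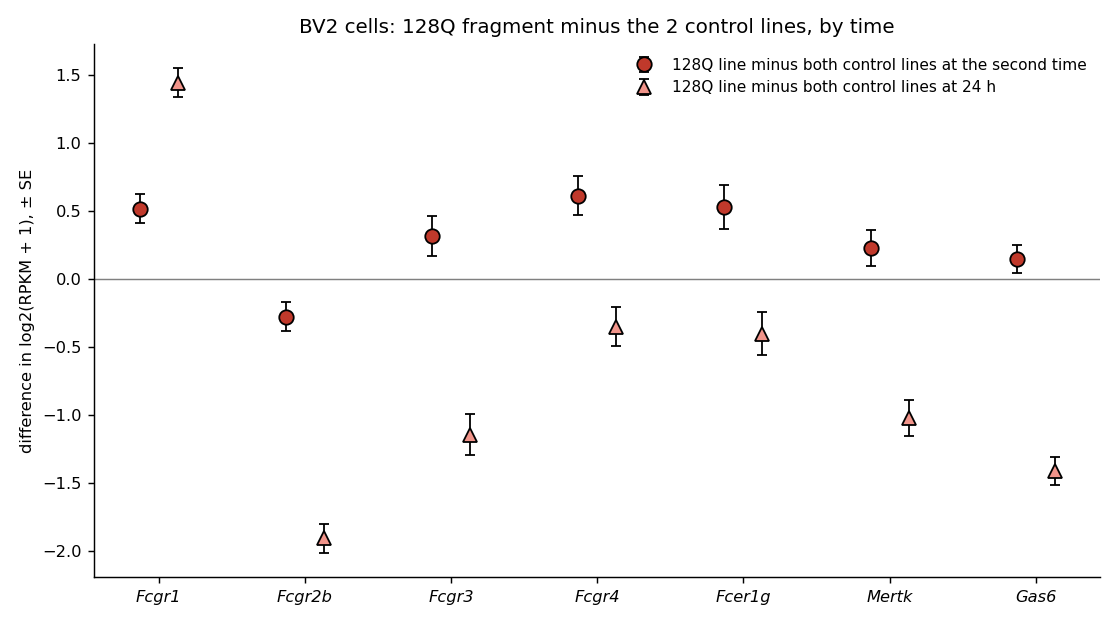
Difference in log2(RPKM + 1) between the 128Q line and the 2 control lines (y axis) for the 7 genes tested (x axis), at the second time (circles) and at 24 h (triangles), with the SE of the limma fit as bars. At 24 h Fcgr1 is at 1.45 and the other 6 genes are below 0, and at the second time only Fcgr2b is below 0.

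The difference between the 2 times was itself tested. All 7 genes passed. The signed difference (128Q minus controls) was lower at the second time than at 24 h for Fcgr1 and higher for the other 6, while 28.1% of the 10350 genes passed, 16.2% in the direction of Fcgr1 and 11.9% in that of the others. The largest values were 1.63 ± 0.15 for Fcgr2b and 1.56 ± 0.15 for Gas6 (second time minus 24 h, limma adjusted p = 0.00969 for both), and the smallest of the 6 was that of Fcer1g (0.93 ± 0.23, limma adjusted p = 0.0383). The Fcer1g call was lost under every alternative, among them a pseudocount of 0.25 (limma adjusted p = 0.0556) and quantile normalization (0.0762), with limma adjusted p from 0.0523 to 0.12. Fcgr3 had 1.46 ± 0.21, Mertk 1.25 ± 0.19, Fcgr4 0.96 ± 0.20 and Fcgr1 -0.93 ± 0.15. The median of the 7 was 1.25, against -0.09 over all genes. The calls rested on few libraries: none of the 7 remained without the 15Q library of the second time (lowest limma adjusted p = 0.0502) or without the empty-vector library of the second time (lowest 0.0531), and 5 remained without either control library of 24 h. Without the filter on low values 3 of the 7 passed (Fcgr1, Fcgr2b and Gas6).

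In the 2 control lines the second time was also set against 24 h. Fcgr1 was higher at the second time (7.55 RPKM in the 15Q line and 8.19 RPKM in the empty-vector line) than at 24 h (3.15 RPKM in the 15Q line and 3.17 RPKM in the empty-vector line). Fcgr2b was lower at the second time (33.8 RPKM in the 15Q line and 31.5 RPKM in the empty-vector line) than at 24 h (67.7 RPKM in the 15Q line and 67.3 RPKM in the empty-vector line). Among the 4 control libraries alone, a comparison added after the data were seen, all 7 genes passed, Fcgr1 higher (1.09 ± 0.09) and the other 6 lower, from -1.03 ± 0.09 for Fcgr2b to -0.57 ± 0.12 for Fcgr4 (limma adjusted p from 0.00267 to 0.0182). Of 10094 genes 47.3% passed, 32.1% higher and 15.2% lower at the second time, and the median of all genes was 0.14. In the 128Q line the 6 genes other than Fcgr1 lay in the opposite order, all higher at the second time than at 24 h, and Fcgr1 had 11.7 RPKM at the second time and 10.3 RPKM at 24 h. This order rests on 1 library per time, and the share of all genes that reversed in this way was not counted. The same libraries gave the test of the difference between times, so the order is not separate evidence. Over all 3 lines together no gene of the 10350 passed for time (limma, 0%, with 27.2% at an unadjusted p under 0.05, Fcgr1 among them with 0.78 ± 0.24). That fit counts the unlike change of the 128Q line as spread, so it does not show that the times were alike.

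Averaged over the 2 times, none of the 7 genes passed the threshold between the 128Q line and either control by limma. The spread in this fit includes any change of a line's difference between the times, so a difference that varies with time widens it. For Fcgr2b the SE was 0.45 here and 0.10 in the test at each time. A miss here therefore does not show that the lines were alike. Of 10350 genes 0.087% passed against the empty vector (15.3% at an unadjusted p under 0.05) and 0.0676% against the 15Q fragment (15.9% unadjusted). Fcgr1 had the lowest p of the 7, with a difference of 0.95 ± 0.29 from the empty-vector line (95% interval 0.21 to 1.70, limma adjusted p = 0.261) and of 1.01 ± 0.29 from the 15Q line (limma adjusted p = 0.236). It was higher in the 128Q line in both times against both controls. Fcgr2b differed by -1.07 ± 0.45 from the empty-vector line (limma adjusted p = 0.355) and was lower in both times against both controls. Without the 128Q library of the second time, 5 genes passed against each control (Fcgr1 higher, Fcgr2b, Fcgr3, Mertk and Gas6 lower), among 3400 genes against the empty vector and 3410 against the 15Q line. Between the 15Q line and the empty-vector line none of the 7 genes passed in limma, with 0% of all genes called (0.638% at an unadjusted p under 0.05).

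Among the BV2 lines, the level of inhibitory Fcgr2b relative to Fcgr3 was lowest in the 128Q line at both times. Fcgr2b stood at 0.385 of the Fcgr3 level at the second time and 0.399 at 24 h in the 128Q line, at 0.555 and 0.736 in the 15Q line and at 0.620 and 0.661 in the empty-vector line, so the 128Q libraries did not overlap the controls. The sum of the 3 activating receptors was 3.58 and 3.74 times the Fcgr2b level in the 128Q line, 2.33 and 1.61 times in the 15Q line and 2.14 and 1.78 times in the empty-vector line. No test was made of these ratios, and they carry the uncertainty of Fcgr2b and Fcgr3 reads given above. How many other pairs of genes separate the 128Q libraries from the controls in this way was not counted.

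Markers moved with the lines as well. The 8 macrophage markers summed to 1806 and 1392 RPKM in the 128Q line (second time and 24 h), 858 and 1037 RPKM in the 15Q line and 713 and 1042 RPKM in the empty-vector line, most of it from the lysozyme gene Lyz2. Without Lyz2 the sums were 408 and 322 RPKM in the 128Q line, 292 and 414 RPKM in the 15Q line and 243 and 450 RPKM in the empty-vector line. At 24 h 5 of the 8 lay below both controls in the 128Q line (Csf1r, Itgam, Cd68, Mrc1 and Ptprc) and 3 above, and at the second time 2 lay below both and 6 above. How often genes at large lay outside both controls was not counted. The 8 endothelial markers summed to 8.57 RPKM in the 128Q line at 24 h and 44.1 and 44.4 RPKM in the control lines at 24 h, all but a trace of it from Flt1, a VEGF receptor, with Cldn5 listed at 0 throughout. Their part in the results was not tested. In these bulk samples fewer cells of a type and less RNA per cell cannot be told apart.

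Other genes of the same pathways were counted in the same test of the difference between times, in which 11.9% of all genes were higher and 16.2% lower with a median of -0.09. Of 17 Fc receptor signalling genes tested (of 20 listed), the signed 128Q difference was higher at the second time for 6 and lower for 1, with a median of 0.40. The most changed were the phosphatases Ptpn6 (SHP-1, 1.25) and Inpp5d (SHIP-1, 1.24), both effectors of ITIM receptors such as Fcgr2b, the DAP12 adaptor Tyrobp (1.13) and the phospholipase Plcg2 (0.95), and Vav3, a guanine nucleotide exchange factor, went the other way (-0.76). Inpp5d had 5.06 RPKM in the 128Q line at 24 h, against 11.02 RPKM in the 15Q line and 12.3 RPKM in the empty-vector line. Tyrobp had 314 RPKM in the 128Q line at the second time, against 153 RPKM in the 15Q line and 136 RPKM in the empty-vector line. Of 22 genes of apoptotic cell uptake tested (of 30 listed), 6 had a higher and 2 a lower signed difference (median 0.22), led by annexin Anxa1 (1.57), the receptor Lrp1 (1.41), Elmo2 (1.33) and Mfge8 (0.95), another bridging protein for phosphatidylserine. In the vitamin K cycle, which modifies Gas6 and Pros1, 1 of 3 passed (Vkorc1, 1.08), and neither of the 2 other Fc receptors tested did. No gene of these 4 lists passed in the comparisons averaged over time.

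**Figure D3:**
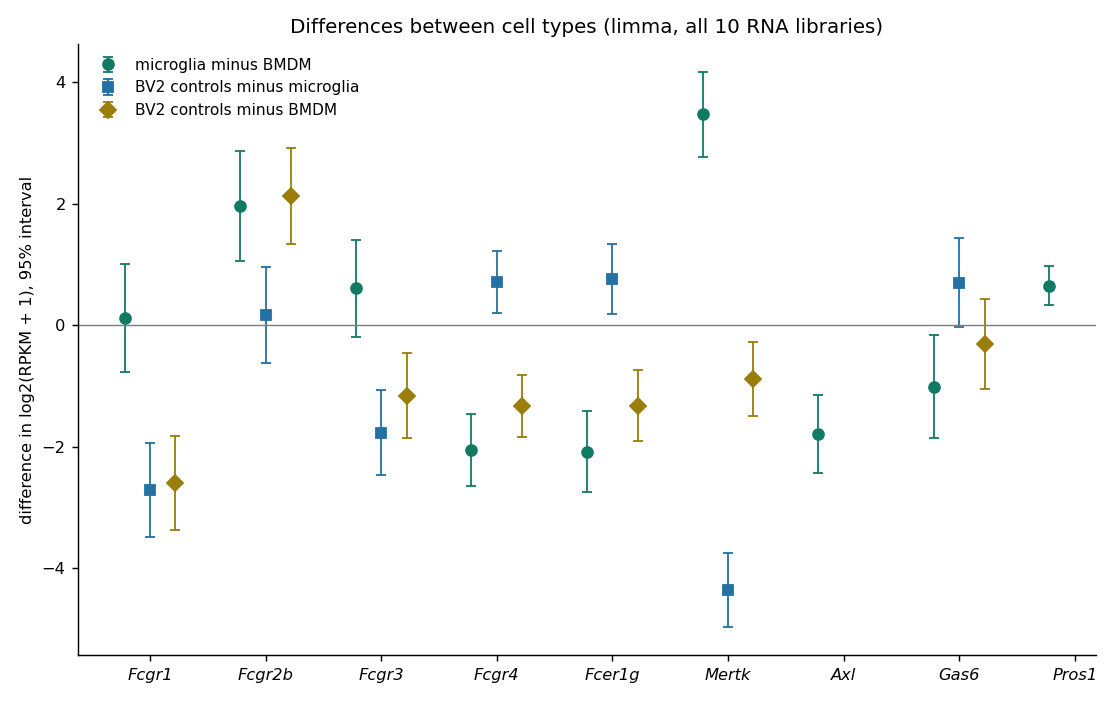
Differences in log2(RPKM + 1) between cell types (y axis) for each gene (x axis), with 95% intervals from the limma fit of all 10 RNA libraries. Circles are microglia minus BMDM, squares BV2 controls minus microglia and diamonds BV2 controls minus BMDM; the BV2 comparisons of Axl and Pros1 are left out because both are listed at 0 in BV2. Mertk is highest in microglia (3.47 against BMDM), and Fcgr4 (-2.05), Fcer1g (-2.08) and Axl (-1.79) are lower in microglia than in BMDM.

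Microglia and BMDM both had reads of all 9 genes, at levels that differed for members of both families. Mertk had the largest difference of the 9 genes on the log2 scale, with 85.7 RPKM in Q175/175 microglia and 86.3 RPKM in Q7/7 microglia, against 6.31 RPKM in Q175/175 BMDM and 7.44 RPKM in Q7/7 BMDM. Axl had the reverse order, with 7.36 and 3.09 RPKM in Q175/175 and Q7/7 microglia, against 21.6 and 17.1 RPKM in Q175/175 and Q7/7 BMDM. For both TAM receptors the cell types did not overlap, as was also so for every other member except Fcgr1. The share of all genes whose libraries separate in this way was not counted. Fcgr2b had 46.4 and 37.7 RPKM in Q175/175 and Q7/7 microglia, against 9.17 and 10.9 RPKM in Q175/175 and Q7/7 BMDM. Fcgr4 had 5.96 and 7.28 RPKM in Q175/175 and Q7/7 microglia, against 30.4 and 30.3 RPKM in Q175/175 and Q7/7 BMDM. Inhibitory Fcgr2b was thus higher in microglia and activating Fcgr4 lower. Fcer1g had 86.0 and 74.9 RPKM in Q175/175 and Q7/7 microglia, against 410 and 286 RPKM in Q175/175 and Q7/7 BMDM. The level of this shared chain was 0.290 and 0.251 of the summed level of the 3 activating receptors in Q175/175 and Q7/7 microglia, against 1.60 and 1.36 in Q175/175 and Q7/7 BMDM and 1.43 to 1.99 in BV2.

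The Fcgr1 values of the 2 primary cell types overlapped, and Fcgr3 was higher in both microglia libraries than in either BMDM library. Fcgr1 had 36.0 and 41.6 RPKM in Q175/175 and Q7/7 microglia, against 35.1 and 36.3 RPKM in Q175/175 and Q7/7 BMDM. Fcgr3 had 254 and 250 RPKM in Q175/175 and Q7/7 microglia, against 190 and 143 RPKM in Q175/175 and Q7/7 BMDM. Fcgr3 ranked 45 and 49 from the top among 22736 genes in microglia. Of the ligands, Pros1 had 37.3 and 45.6 RPKM in Q175/175 and Q7/7 microglia, against 25.0 and 26.7 RPKM in Q175/175 and Q7/7 BMDM. Gas6 had 13.5 and 20.4 RPKM in Q175/175 and Q7/7 microglia, against 40.1 and 29.4 RPKM in Q175/175 and Q7/7 BMDM.

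In the limma fit of all 10 libraries 7 of the 9 genes differed between microglia and BMDM, and so did 57.9% of the 11790 genes tested. Mertk (3.47 ± 0.31), Fcgr2b (1.96 ± 0.40, limma adjusted p = 0.00264) and Pros1 (0.65 ± 0.14, limma adjusted p = 0.00356) were higher in microglia, a direction taken by 15.9% of all genes. Fcer1g (-2.08 ± 0.30), Fcgr4 (-2.05 ± 0.26), Axl (-1.79 ± 0.28) and Gas6 (-1.01 ± 0.37) were lower, as were 41.9% of all genes. The median over all genes was -0.42, so the distances from the typical gene are larger than these for the genes higher in microglia and smaller for the lower ones. Fcgr1 (0.11 ± 0.39, 95% interval -0.77 to 1.00) and Fcgr3 (0.61 ± 0.35, limma adjusted p = 0.169) missed the threshold. With quantile normalization Gas6 lost its call (-0.0139) and Fcgr1 gained one (1.06). The Gas6 call was also lost without any 1 of the 4 primary libraries, and that of Pros1 without Q7/7 microglia (0.51, limma adjusted p = 0.0530), while Fcgr3 passed in the fits of the 4 primary libraries alone (0.61, limma adjusted p = 0.0257 with cell type alone and 0.0322 with genotype as a term).

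The BV2 control libraries (4: the 15Q and empty-vector lines at both times) had little of several receptors of the primary cells. Fcgr1 was 3.15 to 8.19 RPKM in the BV2 controls and at least 35.1 RPKM in every primary library. Axl and Pros1 were listed at 0 in the BV2 controls, against at least 3.09 RPKM of Axl and 25.0 RPKM of Pros1 in the primary cells. Fcgr2b went the other way against BMDM, with 31.5 to 67.7 RPKM in the BV2 controls, 37.7 to 46.4 RPKM in microglia and 9.17 to 10.9 RPKM in BMDM. Against microglia 7 of the 9 genes passed, and 69.2% of all genes (40.4% higher, 28.8% lower): Fcgr1 (-2.71 ± 0.34), Fcgr3 (-1.76 ± 0.31), Mertk (-4.36 ± 0.27), Axl and Pros1 lower, and Fcgr4 (0.72 ± 0.23) and Fcer1g (0.76 ± 0.26) higher. Against BMDM 8 of the 9 passed, and 63.4% of all genes (23% higher, 40.4% lower): Fcgr2b (2.13 ± 0.35) higher, and Fcgr1 (-2.59 ± 0.34), Fcgr3 (-1.16 ± 0.31), Fcgr4 (-1.33 ± 0.23), Fcer1g (-1.32 ± 0.26), Mertk (-0.89 ± 0.27), Axl and Pros1 lower. These 3 cell type comparisons share libraries. The median of all genes was 0.24 against microglia and -0.26 against BMDM. Under quantile normalization the calls of Fcgr4 against microglia (0.39) and of Fcgr3 (-0.58) and Mertk (-0.56) against BMDM were lost, and Fcgr2b against microglia (0.16 ± 0.35, not called) and Gas6 against BMDM (-0.30 ± 0.32, not called) changed sign. The Fcer1g call against microglia was lost without the 24 h library of either control line or either microglia library (0.65 to 0.86), that of Fcgr4 without Q175/175 microglia (0.59), and against BMDM those of Mertk without either BMDM library (-0.99 and -0.79) and of Fcgr3 without Q175/175 BMDM (-0.95).

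The wider pathway lists held genes called in both directions between microglia and BMDM, as did all genes (15.9% higher and 41.9% lower in microglia, median -0.42). Of 20 Fc receptor signalling genes, 5 were higher and 9 lower in microglia than in BMDM (median -0.29), with Vav3 (-3.56), the kinase Prkcd (-2.39), Inpp5d (2.33) and the kinase Fgr (-1.73) furthest apart. Inpp5d had 101 and 103 RPKM in Q175/175 and Q7/7 microglia, against 22.4 and 16.9 RPKM in Q175/175 and Q7/7 BMDM. Tyrobp was lower in microglia (-1.01 ± 0.28), with 203 and 209 RPKM in Q175/175 and Q7/7 microglia, against 452 and 381 RPKM in Q175/175 and Q7/7 BMDM. Of 25 genes of apoptotic cell uptake, 9 were higher and 10 lower in microglia (median 0.13), led by the scavenger receptor Cd36 (-8.13), Anxa1 (-5.60), complement C1qa (5.37) and integrin Itgb5 (3.17). Among 4 other Fc receptors, Fcrls was higher in microglia (4.62) and Trim21, a cytosolic antibody receptor, lower (-1.34). In the vitamin K cycle Ggcx, the carboxylase itself, was higher (1.13) and Vkorc1l1 lower (-1.44). In the BV2 controls 14 of the 20 signalling genes were lower than in microglia (28.8% of all genes) and 15 lower than in BMDM (40.4% of all genes), with the adaptor Lat2 (-4.14 against microglia, -5.73 against BMDM) among the furthest. Of the 25 uptake genes 15 were lower and 5 higher in BV2 controls than in microglia, and 18 lower and 2 higher than in BMDM; C1qa (-9.19), C1qc (-6.64) and Stab1 (-5.72) led against microglia, and Mfge8 was higher in BV2 than in either (4.66 against microglia, 2.32 against BMDM). The Fc gamma receptors sit beside 2 marker lists that differ between these libraries: neutrophil markers, which mark cells that also express Fcgr3 and Fcgr4, were higher in microglia than in BMDM for 4 of 11 tested and lower for 1, and monocyte markers were lower for 5 of 5. Their part in the results was not tested.

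Mutant huntingtin in the primary cells was set against the wild type with 1 library per cell type and genotype. No member passed in the limma fit over both cell types, and 0.337% of the 10687 genes did (2.65% at an unadjusted p under 0.05). Axl had the largest difference of the 9, 0.68 ± 0.26 (95% interval 0.16 to 1.19, unadjusted p = 0.0101, limma adjusted p = 0.885), and was higher in Q175/175 in both cell types. It had 7.36 RPKM (1011 reads) in Q175/175 microglia and 3.09 RPKM (505 reads) in Q7/7 microglia, and 21.6 RPKM in Q175/175 BMDM and 17.1 RPKM in Q7/7 BMDM. On the log2(RPKM + 1) scale Axl was also the only member that differed by 1.5-fold or more between the microglia libraries (by the ratio of RPKM alone, Gas6 did too, 1.51-fold lower in Q175/175), a size reached by 3.14% of genes there, and no member did so in BMDM, where 13% of genes did. Fcer1g was higher in Q175/175 in both cell types (0.36 ± 0.26, limma adjusted p = 1.00) and Pros1 lower in both (-0.19 ± 0.26). Gas6 differed by -0.56 between the microglia libraries and by 0.44 between the BMDM libraries. Of 10 neutrophil markers tested, 4 were lower in Q175/175 (S100a9 -1.41, S100a8 -1.29, Ltf -1.17, Camp -1.01), and their part in these values was not tested. The fit had 1 residual degree of freedom and gave every gene the same SE of 0.26.

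**Figure D4:**
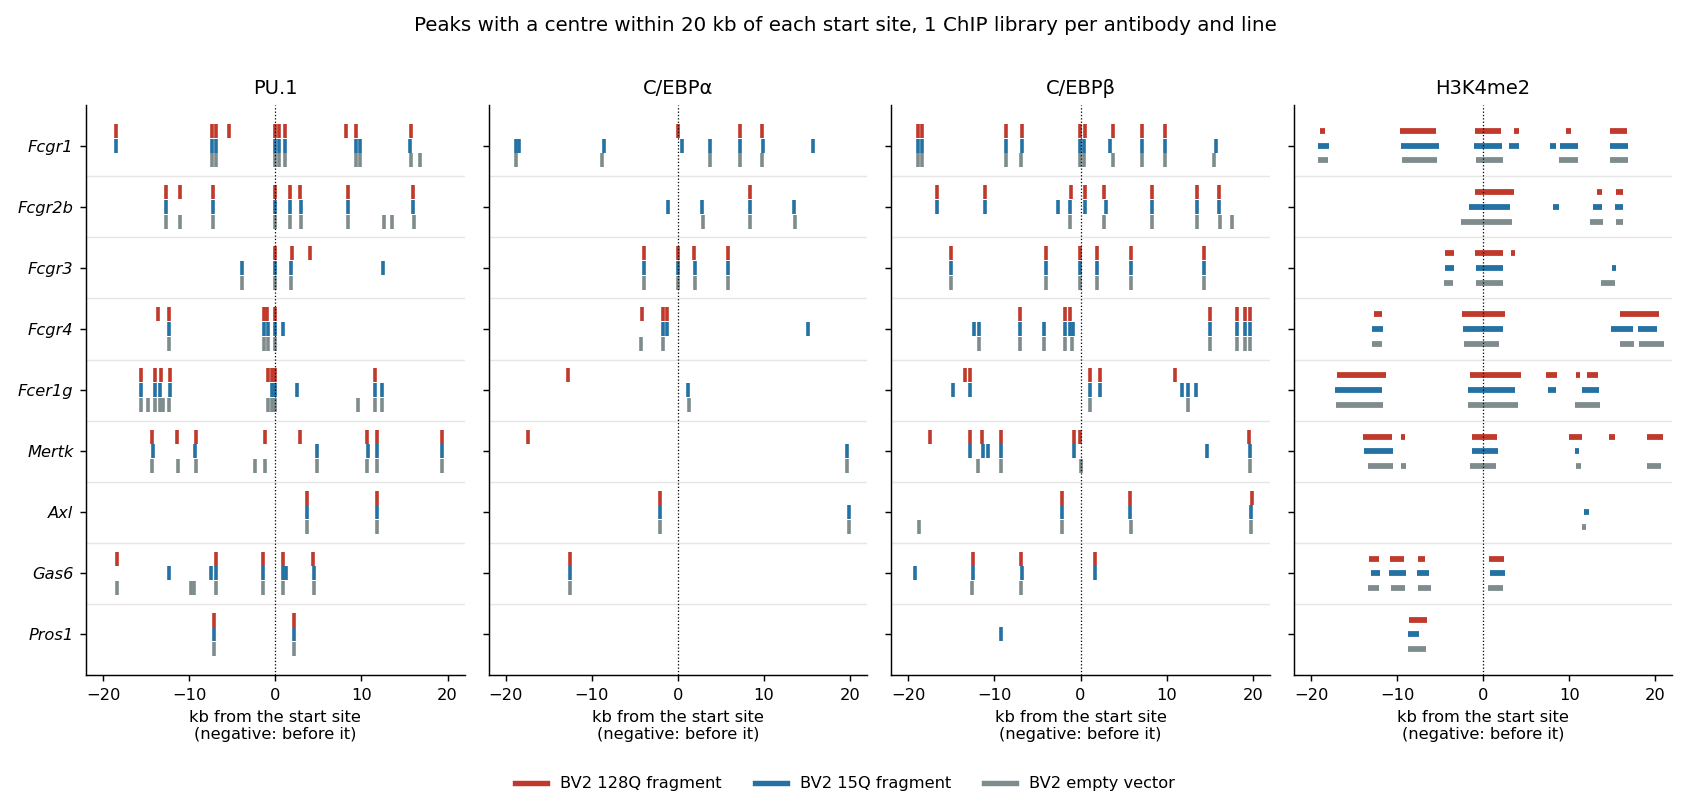
Position of peaks (x axis, kb from the start site, negative before it) near each gene (rows), in 1 panel per antibody. Ticks are centres of PU.1, C/EBPα and C/EBPβ peaks, bars are H3K4me2 regions, and colours are the 128Q line (top), the 15Q line (middle) and the empty-vector line (bottom). PU.1 ticks of all 3 lines stand at the start of the 5 Fc receptor genes, and Axl and Pros1 have no H3K4me2 bar over their start.

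In the chromatin maps of BV2 at 24 h the 5 Fc receptor genes had PU.1 and H3K4me2 at their starts, and Axl and Pros1, with no RNA, had neither there. Each antibody and line had 1 library and its own peak list, so a peak in 1 list and not in another is a description with no test, and list lengths differed (53835 to 71846 peaks for PU.1, 9117 to 19732 for C/EBPα, 35964 to 69522 for C/EBPβ and 39445 to 42514 for H3K4me2). All 9 genes had a PU.1 peak within 20 kb in every line, compared with 67.9% of all genes in the 128Q line, 62.6% in the 15Q line and 69.7% in the empty-vector line, and with 88%, 83.2% and 90% of genes expressed in BV2. Within 1 kb of the start 6 of the 9 had one in every line (the 5 Fc receptor genes and Gas6), against 18.6%, 14.6% and 21.9% of all genes in the 128Q, 15Q and empty-vector lines and 33.2%, 26% and 39.1% of genes expressed in BV2. An H3K4me2 region covered the start of the 5 Fc receptor genes and Mertk in every line, and of 24.7%, 26% and 29% of all genes in the 128Q, 15Q and empty-vector lines (45.3%, 48.2% and 53.5% of those expressed in BV2). It covered neither Gas6, where a region stood 1.56 kb into the gene, nor Axl or Pros1.

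At Fcgr3 every C/EBP site was called in all 3 lines. It had 4 C/EBPα and 6 C/EBPβ peaks in each line, with both factors at the start, 3.96 kb before it and 1.93 kb after it. Fcgr1 had 10 PU.1 peaks in the 128Q line and 9 in each of the 15Q and empty-vector lines, and a C/EBPβ peak at its start (-14) in all 3. A C/EBPα peak at the start of Fcgr1 (-6) was called in the 128Q line alone, while Fcgr1 had fewer C/EBPα peaks there in all, 3 in the 128Q line, 8 in the 15Q line and 5 in the empty-vector line. Fcgr2b had 8 PU.1 peaks in the 128Q line, 7 in the 15Q line and 10 in the empty-vector line, and 1, 4 and 3 C/EBPα peaks in the 128Q, 15Q and empty-vector lines. The C/EBPα counts of both genes ran in the order of the whole lists. These held 9117 C/EBPα peaks in the 128Q line, 19732 in the 15Q line and 11645 in the empty-vector line. The PU.1 lists of the same lines held 64744, 53835 and 71846 peaks. Fcer1g had 8, 9 and 12 PU.1 peaks in the 128Q, 15Q and empty-vector lines. Counted over the 9 genes, 5 of 51 PU.1 peaks were found in the 128Q line only (9.80%, against 19.2% of its whole PU.1 list), 4 of 48 C/EBPβ peaks (8.33%, against 13.6%), 3 of 15 C/EBPα peaks (20%, against 13.2%) and 2 of 31 H3K4me2 regions (6.45%, against 12.7%).

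Of the TAM genes, Gas6 had a PU.1 peak within 1 kb of its start and Mertk an H3K4me2 region over it in every line. Mertk had 8, 6 and 9 PU.1 peaks within 20 kb in the 128Q, 15Q and empty-vector lines, of which 5 were called in all 3 lines, among them those 10.68 kb and 11.83 kb into the gene, and a C/EBPβ peak at its start (-28) in the 128Q and empty-vector lines. Gas6 had PU.1 peaks 6.93 kb and 1.42 kb before its start and 0.91 kb and 4.43 kb after it in all 3 lines, and a single C/EBPα site 12.55 kb before it. Axl, with no RNA in these cells, had PU.1 peaks 3.70 kb and 11.77 kb after its start and C/EBPβ peaks 2.10 kb before it and 5.80 kb and 19.85 kb after it in all 3 lines. Its only H3K4me2 region, 11.85 kb after the start, was called in the 15Q and empty-vector lines but not in the 128Q line. Pros1 had PU.1 peaks 7.16 kb before its start and 2.17 kb after it and an H3K4me2 region 7.71 kb before it in all 3 lines, and no C/EBPα peak. Both silent genes thus had factor peaks nearby with no region of H3K4me2 over the start.

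The genes most like each member across the 10 libraries were found by the root mean square difference of centred log2(RPKM + 1) among 5692 genes, as a description. Fcgr4 and Fcer1g shared Plekhb2 (0.106 and 0.121) and Gabarap (0.138 and 0.202) among their 3 nearest, with Wdr11 for Fcgr4 and Cndp2 for Fcer1g. Fcgr3 was nearest to Pfkfb4 (0.170), Man2b1 and the lysosomal protease Lgmn. Fcgr1 was nearest to Dock8 (0.332), Neurl3 and Fez2, and Fcgr2b to Eno3 (0.352), Lrp5 and Tbc1d16. Among the TAM genes, Mertk was nearest to Pag1 (0.290), Cmklr1 and Spint1, and Axl to Sp100 (0.241), Irgm1 and Phyh. Gas6 was nearest to Serhl (0.197), Ech1 and Klhl5. Pros1 had the granule gene Ngp (0.287) and Pycard (0.304) among its 3 nearest. The points share cell types and lines, so they are not 10 independent samples.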

How the data were processed

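Poly(A) RNA was measured in 10 libraries and 4 ChIP antibodies in 12 libraries. The authors deposited 1 table of RPKM per RefSeq transcript (build mm9), and STAR 2.0.3e and HOMER stand in the submitters' processing notes. They deposited 1 peak list per ChIP library, called with HOMER against an input named for another macrophage type, per the file headers; the score column is 1 for every deposited peak and was used for no ranking. How strand and reads with several map positions were handled is not stated.

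For each symbol the transcript with the highest mean was kept. Genes reaching 1 RPKM in 2 or more of the libraries fitted were tested with limma 3.58.1 (R 4.3.3) on log2(RPKM + 1), Benjamini-Hochberg adjusted over all genes tested, threshold 0.05. The BV2 fits had construct and time as terms, since the labels pair the libraries by time; the test of the 128Q difference between times used the 2 controls of a time as replicates; the cell type fits used all 10 libraries, and the primary-cell fit genotype and cell type. The scripts were tested on simulated data. Peaks were assigned where the centre lay within 20 kb of the start of the kept transcript, and sites of different lines were merged at an overlap of 1 base. Depth was read from the steps of low RPKM values, and intervals cover the spread between libraries. All 9 members are named, as are up to 4 called genes of each pathway list and the 3 nearest profiles of each member. The members and lists were chosen with earlier results of these data known, and the pathway and marker lists of the report are not independent evidence. Tyro3 and Tyrobp are always given, and any other gene of a list was named after its values were seen. Alternatives were a pseudocount of 0.25, no filter, quantile normalization, no pairing term, each library left out, windows of 10 kb and 40 kb, all annotated starts and sharing within 200 bases. RefSeq promoters were matched by symbol for all 9 members. No column of the table was left out. Results of a few genes that these rules would name are not reported here.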

Additional observations from a re-analysis of the deposited data

Results flagged for a closer look

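The 128Q minus control difference passed the limma test between the 2 times for the 7 genes tested (second time minus 24 h, on the log2 scale): Fcgr2b 1.63, Gas6 1.56, Fcgr3 1.46, Mertk 1.25, Fcgr4 0.96, Fcer1g 0.93 and Fcgr1 -0.93. The 128Q line had 1 library per time, whose spread was taken from that between the 2 control lines, and none of the 7 passed without the 15Q library (lowest limma adjusted p = 0.0502) or the empty-vector library (lowest 0.0531) of the second time. In the primary cells 3 genes had opposite signs in the 2 cell types, with 1 library on each side, and the difference was not tested. Gas6 was lower in Q175/175 than in Q7/7 microglia and higher in Q175/175 than in Q7/7 BMDM, a difference of -1.0 between the cell types. Fcgr2b was higher in Q175/175 microglia and lower in Q175/175 BMDM (a difference of 0.52 between the cell types). Fcgr4 differed by -0.25 in microglia and by 0.01 in BMDM (a difference of -0.26). None of the 7 genes tested in BV2 had 1 control library set apart from the other 3. This check pooled the control libraries of both times. They split by time for these genes, so it could hardly flag a single library.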

How the results depend on the processing

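Of 777 recomputed values of single genes, 654 kept their sign and their side of the threshold, 42 lost a call, 34 gained one and 47 changed sign, 4 of these under quantile normalization and the others with 1 library left out. The cause was not tested. The Q175/175 fits with 1 library left out gave no p-value, so their values were counted by sign alone. Leaving out 1 library in turn gave these ranges. For the 128Q line against the empty vector, 0 to 5 members and 16 to 3400 genes were called (all libraries: 0 and 9), and log2 differences ran from -1.12 to 0.346 for Fcgr3, -0.301 to 0.662 for Fcgr4, -0.322 to 0.607 for Fcer1g, -0.953 to 0.3 for Mertk and -1.4 to 0.153 for Gas6. Against the 15Q line, 0 to 5 members and 73 to 3410 genes were called (all libraries: 0 and 7), with -1.17 to 0.29 for Fcgr3, -0.4 to 0.564 for Fcgr4, -0.48 to 0.449 for Fcer1g, -1.09 to 0.161 for Mertk and -1.42 to 0.139 for Gas6. For the 15Q line against the empty vector, 0 to 41 genes were called, with -0.323 to 0.212 for Fcgr1, -0.388 to 0.496 for Fcgr2b, -0.46 to 0.572 for Fcgr3, -0.269 to 0.466 for Fcgr4, -0.205 to 0.52 for Fcer1g, -0.243 to 0.522 for Mertk and -0.42 to 0.449 for Gas6. For the second time against 24 h, 0 to 7 members and 0 to 4598 genes were called, with -0.788 to 0.0437 for Fcgr3 and -0.712 to 0.0963 for Gas6. For the 128Q difference between times, 0 to 5 members and 0 to 2126 genes were called, and it could not be fitted without a 128Q library. Fcgr2b ran from -0.00778 to 0.352 in BV2 controls against microglia, and Gas6 from -0.524 to -0.0857 against BMDM. The Q175/175 values, with no test once a library is left out, ran from -0.228 to 0.291 for Fcgr2b, -0.25 to 0.00671 for Fcgr4 and -0.561 to 0.438 for Gas6.

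Without the filter, 0 genes were called for the 128Q line against either control, 0 for Q175/175, and 3 members and 1795 genes for the difference between times. With no replicate block (the pairing by time or cell type left out), 3 genes were called against the empty vector, 4 against the 15Q line, 640 for time and 0 for Q175/175, and no call of a member changed in these 4 comparisons. Fcgr3 in microglia against BMDM passed in the fits of the 4 primary libraries both with the replicate block (limma adjusted p = 0.0322) and without it (0.0257). The 4 control libraries alone, chosen after seeing the data, called 7 members and 4779 genes for time. A pseudocount of 0.25 called 75 genes and quantile normalization 0 genes for Q175/175. Quantile normalization gave Gas6 -0.00266 in the 15Q line against the empty vector, Fcgr2b -0.218 in BV2 controls against microglia, Gas6 0.197 against BMDM and Fcgr2b -0.0137 for Q175/175. Within 10 kb, 5 members had a C/EBPα peak in the 128Q line (8 within 20 kb). Within 20 kb, 21.7% of all genes and 32.7% of genes expressed in BV2 had one in that line, and the share within 10 kb was not counted. With a gap of 200 bases 0 C/EBPα peaks near the members were found in the empty-vector line alone (1 by overlap). At the depth of BV2, Mertk rested on as few as 82 reads.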
